A study of Mus musculus with 7 samples.

Results

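Cranial neural crest mesenchyme that carried the Alx1 transcript was described in mouse embryos at E8.5, in 1 library of cells from the Wnt1-Cre/+;ROSA-EGFPf/+ lineage sorted for EGFP. A kept cell had at least 1000 genes detected and at most 10% of its unique molecular identifiers (UMIs, 1 for each captured transcript) from mitochondrial genes. A kept cell was counted as Alx1 mesenchyme if it had at least 1 Alx1 UMI, at least 2 UMIs from Twist1, Prrx1 and Prrx2 together, and under 2 UMIs of Sox10. Of 5874 kept cells among 5987 barcodes, 617 met this rule, which is 10.5% (95% interval 9.73 to 11.3%). The cells were chosen by the measured UMIs of these 5 genes in this library, so the levels of the 5 are a description of the choice and not a finding. Over all 7 libraries of the series, 58432 of 65862 barcodes were kept.

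The E8.5 library came from control embryos of a strain labelled Swiss-Webster, which the methods call a mixed background, from the anterior part of the embryo with the head and the heart. The other 6 libraries were made at E9.5, from the pharyngeal region and heart with the head removed, and at E10.5, from arches 2 to 6 and the heart with the first arch removed. The sample list in the supplement of the study adds the neural tube to the dissected tissue of all 6. They comprise 1 control library at E9.5, 2 control libraries at E10.5, 1 Tbx1null library at E9.5 and 2 Tbx1null libraries at E10.5. In every library, Wnt1-Cre drove recombination in the neural crest and the dorsal neural tube, the cells were EGFP-positive and DAPI-negative, and each library was a pool of at least 2 embryos. The titles call the mutant libraries Tbx1null, whereas their genotype field reads Wnt1-Cre/+;Tbx1+/-;ROSA-EGFPf/+. The sample list in the supplement of the study gives these libraries as Wnt1-Cre/+;Tbx1-/-;ROSA-EGFPf/+, which goes with the titles and not with that field. The libraries held 140264662 to 234844769 UMIs, and the kit was version 2 at E8.5 and version 3 or 3.1 later, so that stage, tissue and kit cannot be told apart between E8.5 and the later libraries. The E8.5 library shared 6 cell barcodes with the other libraries, which shared 114 to 173. Since E8.5 has 1 library, no test between cell sets was possible there. The 95% intervals below (exact Poisson for levels, exact conditional for ratios, Clopper-Pearson for shares) cover counting error only. Levels are CPM, the UMIs of a gene summed over the cells of a set per 1000000 UMIs of the set.

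Neural crest cells leave the dorsal neural tube, pass through a migratory state marked by Sox10 and Foxd3, and in the head give rise to mesenchyme that forms bone, cartilage, connective tissue and the stroma around the eye. Alx1 and Alx4 encode related paired-type homeodomain factors of the frontonasal and periocular mesenchyme, and their loss is known to disturb the middle and upper face. Twist1 encodes a basic helix-loop-helix factor, and Prrx1 and Prrx2 encode homeodomain factors, all of craniofacial and limb mesenchyme. Tnfaip6 encodes a secreted protein that binds hyaluronan.

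In the 617 cells the Alx1 level was 142 CPM, with 1 to 20 UMIs per cell and a median of 2. Exactly 1 Alx1 UMI was found in 209 cells (33.9%), 2 or 3 in 183 and 4 or more in 225. The other 5257 kept cells had 37.0 CPM of Alx1, most of it from 1090 cells that met the rule except that they had 2 or more Sox10 UMIs, where the level was 124 CPM. Twist1 was at 188 CPM in Alx1 mesenchyme against 71.3 CPM in all other kept cells, Prrx2 at 138 against 70.9 CPM, and Prrx1 at 40.6 against 8.18 CPM. Sox10 was at 22.5 against 67.9 CPM. Before any thinning, a UMI of Twist1 was present in 92.5% of the cells, of Prrx2 in 89.6% and of Prrx1 in 45.9%.

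At the edge of at least 1 threshold stood 452 of the 617 cells (73.3%), and 14 stood at the edge of every one. Just inside the Sox10 limit were 366 cells with 1 Sox10 UMI, and just outside it 322 cells with 2. Alx1 was at 142 CPM inside and 137 CPM outside, Tnfaip6 at 36.5 and 28.3 CPM, Twist1 at 182 and 186 CPM, and Hopx at 110 and 100 CPM. Just inside the Alx1 threshold (1 UMI, 209 cells) Tnfaip6 was at 15.1 CPM and Otx2 at 6.18 CPM, and just outside it (0 UMIs, 557 cells) at 10.3 and 47.7 CPM. Just inside the mesenchymal threshold were 37 cells with a sum of 2, and just outside it 48 cells with a sum of 1, with Tnfaip6 at 25.8 and 8.36 CPM and Hopx at 36.9 and 13.9 CPM. The values given were nearer to each other across the Sox10 limit than across the other thresholds. This did not hold for every gene. Across the mesenchymal threshold Id3 (688 and 720 CPM) and Crabp2 (514 and 523 CPM) were close. No interval was computed for these sets of 37 and 48 cells.

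All 10 cranial mesenchyme markers set for the check of the label were detected, at 597 CPM summed, but 509 CPM of this came from Alx1, Twist1, Prrx1 and Prrx2, which the rule used. The 6 markers outside the rule, Tnfaip6 and Foxc1 among them, summed to 87.6 CPM in Alx1 mesenchyme, 26.6 CPM in all other kept cells, 29.4 CPM in 557 Alx1-negative mesenchyme cells (0 Alx1 UMIs, the rest of the rule met) and 5.11 CPM in neural background cells. In the 1090 cells that met the rule except for 2 or more Sox10 UMIs, they summed to 56.7 CPM. Of the 87.6 CPM, 39.5 CPM came from Tnfaip6, a marker gene of the set, while Pdgfra was at 11.1 CPM against 9.97 CPM in Alx1-negative mesenchyme. The neural background cells are 721 kept cells with at least 4 UMIs of Sox1, Sox2 and Sox3 together and none of Twist1, Prrx1, Prrx2 or Sox10. Early migrating crest markers were also present, at 227 CPM summed over the 5 genes outside the rule. Arch crest markers summed to 63.6 CPM, led by Dlx2 at 40.5 CPM, while Hand2 of the ventral arches had 0 UMIs. Endothelial markers summed to 0.677 CPM (Tie1 at 0) and blood markers to 1.05 CPM (Gata1 at 0). Surface ectoderm and endoderm markers summed to 11.6 CPM (Cdh1 and Trp63 at 0), neuron markers to 47.2 CPM (Dcx at 0), and neural tube markers to 26.2 CPM. Mesoderm markers summed to 19.1 CPM in Alx1 mesenchyme, 11.9 CPM in all other kept cells and 13.3 CPM in Alx1-negative mesenchyme, with Nkx2-5 at 0 in Alx1 mesenchyme. Tcf15, a paraxial mesoderm factor, made up 16.2 CPM of the first sum, against 7.41 CPM in all other kept cells (2.19-fold, 1.90 to 2.52) and 5.36 CPM in Alx1-negative mesenchyme (3.03-fold, 2.32 to 4.00). In the cells with Alx1 and 2 or more Sox10 UMIs it was at 15.3 CPM. This marker of another cell type was thus high in both sets with Alx1 and not particular to Alx1 mesenchyme. The part of Tcf15 in the results was not tested. The 5 early crest genes summed to 203 CPM in all other kept cells.

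Of the 3 marker genes of the set, Tnfaip6 and Prrx1 had an upstream window in the RefSeq table used here (GRCm38.p6), and Alx1 did not. The windows of both genes are shown since Tnfaip6 and Prrx1 are the markers whose levels are followed below; each begins 250 bases before the RefSeq start and stops before the first annotated transcript. Capitals mark matches to CANNTG, the core that basic helix-loop-helix factors such as Twist1 bind, and to TAATTA, a core of homeodomain factors. Both motifs read the same on either strand, and no match of one overlapped a match of the other.
Tnfaip6, 146 bases, chr2:52037863-52038008, + strand: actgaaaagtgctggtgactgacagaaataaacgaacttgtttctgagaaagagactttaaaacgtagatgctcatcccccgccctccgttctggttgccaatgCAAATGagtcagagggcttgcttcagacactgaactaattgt
Prrx1, 190 bases, chr1:163313711-163313900, - strand: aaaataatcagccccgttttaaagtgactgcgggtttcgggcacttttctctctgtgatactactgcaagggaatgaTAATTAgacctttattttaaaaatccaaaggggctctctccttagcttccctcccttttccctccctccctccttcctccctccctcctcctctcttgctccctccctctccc
The Tnfaip6 window holds 1 CANNTG and 0 TAATTA, and 48.4% of all 32851 promoter windows cut to the same length hold a CANNTG. The Prrx1 window holds 0 CANNTG and 1 TAATTA, which 4.02% of windows cut to its length hold. These are letter matches only. Tnfaip6 lies on mouse chromosome 2 (52038009 to 52056686, + strand), Alx1 on chromosome 10 (102998707 to 103030215, - strand) and Prrx1 on chromosome 1 (163245119 to 163313710, - strand), all in GRCm38.

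Tnfaip6 was the marker that the rule did not use. It was still a marker gene of the set, which was chosen with earlier results of these data known, so its excess at E8.5 is a description. Its level was 39.5 CPM (36.5 to 42.7) in Alx1 mesenchyme, 10.5 CPM in all other kept cells, 10.3 CPM in 557 mesenchymal cells that met the rule but had 0 Alx1 UMIs, 23.0 CPM in the 1090 cells with Alx1 and 2 or more Sox10 UMIs, and 2.49 CPM in neural background cells. The level was thus 3.77-fold higher (3.43 to 4.15) than in all other kept cells and 3.85-fold higher (3.19 to 4.66) than in Alx1-negative mesenchyme. After each cell was thinned to 10000 UMIs, which left out 1 of the 617 cells, a Tnfaip6 UMI was found in 26.9% of Alx1 mesenchyme cells (23.5 to 30.6%), 7.63% of all other kept cells, 9.51% of Alx1-negative mesenchyme and 2.39% of the neural background. Without thinning the share in Alx1 mesenchyme was 48.5%. Median depth before thinning was 25008 UMIs in Alx1 mesenchyme and 20698 UMIs in the neural background.

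Alx4 had 59 UMIs in Alx1 mesenchyme, 3.63 CPM (2.76 to 4.68), and was 4.94-fold higher (3.50 to 6.93) than in all other kept cells.

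**Figure D1:**
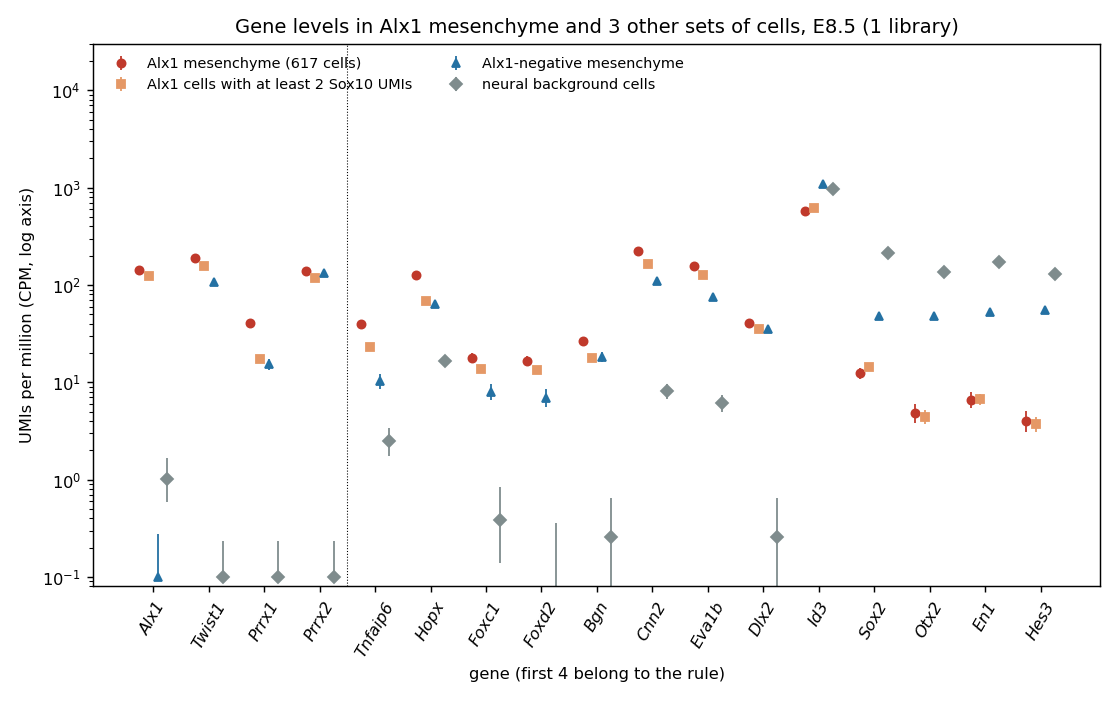
Level of selected genes in cell sets of the E8.5 library, in CPM on a log axis; points are sets, bars are 95% Poisson intervals that cover counting error only, and sets with 0 UMIs are drawn at 0.1. Tnfaip6 and Hopx stood at 39.5 and 128 CPM in Alx1 mesenchyme and at 10.3 and 63.3 CPM in Alx1-negative mesenchyme, while Otx2 stood at 4.80 and 47.7 CPM.

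The first comparison asked which genes set Alx1 mesenchyme apart from the other 5257 kept cells. Of 6441 genes with at least 10 CPM in either set, the rule genes left out, 43 (0.668%) were at least 2-fold higher in Alx1 mesenchyme and 172 (2.67%) at least 2-fold lower. Among genes of at least 50 CPM in Alx1 mesenchyme, the 5 past 2-fold were Hopx, Cnn2, Eva1b, Mt1 and Dnajc1. Cnn2, which encodes the actin-binding protein calponin 2, was at 224 against 86.5 CPM (2.59-fold, 2.49 to 2.69). Hopx, encoding a small homeodomain protein that does not bind DNA, was at 128 (123 to 134) against 38.5 CPM (3.32-fold, 3.16 to 3.50). A thinned cell had a Hopx UMI in 53.2% of Alx1 mesenchyme (49.2 to 57.2%; 72.0% unthinned) and in 9.86% of the neural background. Eva1b was at 156 against 63.3 CPM (2.47-fold), Dnajc1, which encodes an endoplasmic reticulum co-chaperone, at 120 against 59.5 CPM (2.01-fold), and Mt1, a metallothionein gene, at 92.4 against 45.6 CPM (2.03-fold). Just under 2-fold stood the crest factor genes Mef2c (135 against 72.8 CPM, 1.86-fold) and Snai1 (83.0 against 45.1 CPM, 1.84-fold), and Inka1, which encodes a kinase inhibitor (266 against 149 CPM, 1.78-fold).

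Among genes of 10 to 50 CPM, Foxc1, a forkhead factor gene of periocular and head mesenchyme, was at 18.0 against 5.96 CPM (3.02-fold), and Foxd2 at 16.7 against 5.96 CPM (2.81-fold), with Foxd2os, its neighbour on the other strand that does not overlap it, at 15.3 against 4.79 CPM. Of 11 hyaluronan and proteoglycan genes that reached the floor, 2 were past 2-fold, Bgn (26.9 against 9.85 CPM) for the proteoglycan biglycan and Hapln1 (25.0 against 12.1 CPM) for a hyaluronan link protein, and none was 2-fold lower. Has2, which encodes the main embryonic hyaluronan synthase, was at 1.11 against 0.847 CPM. Of 6 collagen genes, Col5a2 (13.0 against 5.71 CPM) and Col23a1 (17.7 against 6.06 CPM) were past 2-fold and Col18a1 was 2-fold lower. The median log2 ratio of the 6 was 0.84, beside -0.01 over all 6441 genes. Foxc1, Foxd2, Bgn, Col5a2 and Col23a1 met the floor of 10 CPM only in Alx1 mesenchyme. Such a gene cannot be counted as lower, and it raises the median of its list, so these counts are a description. Of 15 other matrix genes only Sparc was past 2-fold, lower, with Fn1 at 17.0 against 17.3 CPM. Cdh11, the mesenchymal cadherin gene, was at 45.0 against 20.2 CPM (2.23-fold), whereas Cdh2, the N-cadherin gene, was at 15.1 against 34.0 CPM.

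**Figure D2:**
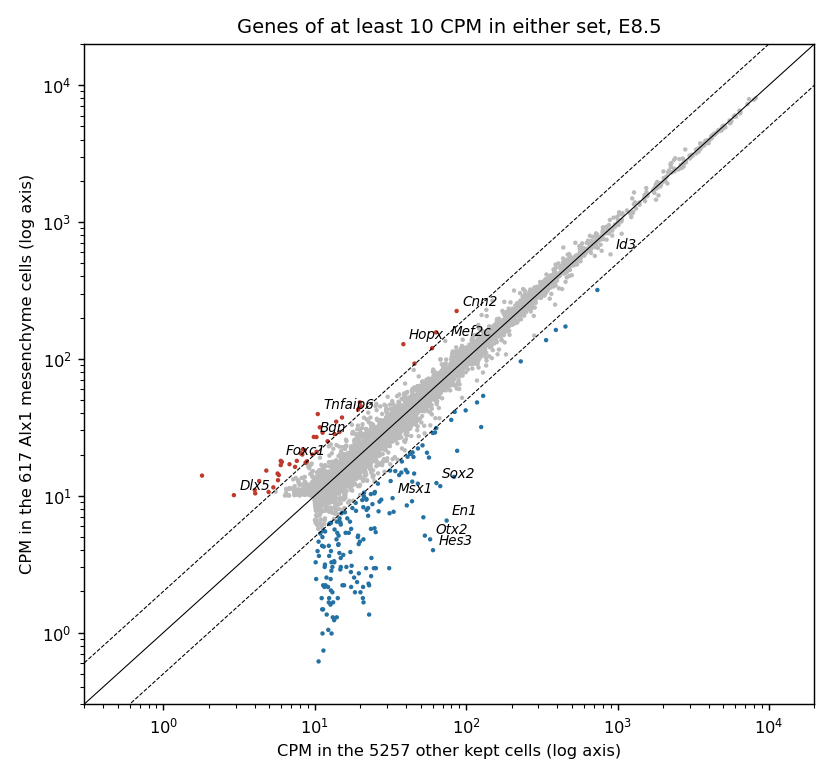
Level of each gene in Alx1 mesenchyme (y axis) against all other kept cells (x axis) of the E8.5 library, in CPM on log axes, with lines at 2-fold; genes at 0 in either set are not drawn. Of 6441 genes counted, 43 lie above the upper line and 172 below the lower one.

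The genes that were lower were led by those of the neural tube. Of 17 neural tube genes counted, 15 were at least 2-fold lower and 0 higher, with a median log2 ratio of -3.02. The floor of 10 CPM could be met in either set, and Otx2 and En1, for example, met it only in the other kept cells. Such a gene cannot be counted as higher, and the other kept cells include the neural background cells, so this count is a description of the 2 sets. Hes3, a Notch pathway repressor gene, was at 4.00 CPM against 60.4 CPM (15.1-fold lower, 11.8 to 19.6), Otx2, a forebrain and midbrain homeobox gene, at 4.80 against 57.8 CPM (12.0-fold lower, 9.64 to 15.3), and En1, of the boundary between midbrain and hindbrain, at 6.58 against 74.4 CPM (11.3-fold lower). Sox2, a neural progenitor gene, was at 12.4 against 63.7 CPM. The Otx2 ratio of Alx1 mesenchyme to all other kept cells was 0.0830, and 0.0214 once cells marked as doublets were removed. An Otx2 UMI was found in 2.44% of thinned Alx1 mesenchyme cells and in 55.5% of the neural background. Of 14 Wnt pathway genes, 6 were 2-fold lower (Sp5, Sfrp2, Nkd1, Axin2, Fzd3 and Dkk1) and 0 higher. Among these, Axin2, a feedback inhibitor gene induced by Wnt signals, was at 7.14 against 22.5 CPM, and so it too met the floor only in the other kept cells. Crabp2, encoding a carrier of retinoic acid, was at 172 against 453 CPM, while Rarg, a retinoic acid receptor gene, was at 21.8 against 8.35 CPM. The summed level of Hox genes was 21.2 CPM in Alx1 mesenchyme, 52.8 CPM in all other kept cells and 67.5 CPM in Alx1-negative mesenchyme.

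The other lists are to be read against the 0.668% of all counted genes that were 2-fold higher and the 2.67% that were 2-fold lower. None of 22 S phase genes, 22 G2 and M phase genes, 4 cell cycle inhibitors, 8 BMP and TGF-beta genes, 5 hedgehog genes and 6 dissociation stress genes that reached the floor was past 2-fold. The S phase genes had a median log2 ratio of 0.05 and the G2 and M phase genes of -0.15. Of 12 early crest genes, Ednrb, an endothelin receptor gene, was 2-fold lower and the others lay between the limits, with Sox9 at 54.7 against 60.4 CPM. Foxd3, the premigratory crest factor gene, was under the floor at 4.12 against 9.51 CPM. Of 9 fibroblast growth factor pathway genes, Fgf15 and Il17rd were lower, and of 9 guidance genes, Efna2 and Efnb3 were lower. In the arch list 2 of 3 genes counted were higher, Dlx5 (10.1 against 2.92 CPM) and Tbx3 (11.5 against 5.33 CPM), and 0 lower. Both met the floor only in Alx1 mesenchyme and could not be counted as lower, so this count is a description. Igfbp2, Igfbp5 and the chemokine receptor gene Cxcr4 were the 3 of 8 growth factor and chemokine genes that were lower, with 0 higher. Of 9 genes counted in the list of mesenchymal transition and forkhead factors, which does not hold Foxc1 or Foxd2, only Meis1 was past 2-fold, and it was lower. The frontonasal list had 5 genes counted, with 1 higher and Msx1 and Zic1 lower. No endothelial, blood or cartilage gene of the lists reached the floor.

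The next comparison was with the 557 Alx1-negative mesenchyme cells, which met the rest of the rule. Against them, 29 of 6450 genes (0.45%) were at least 2-fold higher and 139 (2.16%) at least 2-fold lower. The counts were 7 and 20 when the rule was applied after thinning, and 90 and 265 with Sox10 at 0. Hopx was at 128 against 63.3 CPM (2.02-fold), Tnfaip6 as given above, and Foxd2 at 16.7 against 6.95 CPM (2.41-fold, 1.90 to 3.09). Dlx5 did not share this pattern, with 10.1 CPM against 10.7 CPM. Msx1, a homeobox gene of the BMP response, was at 9.60 against 60.2 CPM (6.27-fold lower), and Id3, encoding an inhibitor of basic helix-loop-helix factors, at 580 against 1105 CPM (1.90-fold lower). The neural tube markers differed between these sets as well, at 26.2 against 165 CPM summed. When cells with any Sox1, Sox2 or Sox3 UMI were left out of both sets, which kept 470 and 290 cells, 15 genes were higher and 30 lower. The neural tube markers then summed to 3.57 and 11.8 CPM, from Hes5, Otx2 and Pax6 alone, since this filter itself sets Sox1, Sox2 and Sox3 to 0. In these cells Msx1 was at 7.47 against 42.5 CPM, Crabp2 at 153 against 332 CPM and Id3, which was under 2-fold in both comparisons, at 537 against 928 CPM. The part of neural transcripts in these differences was not tested.

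Against the 1090 cells with Alx1, mesenchymal transcripts and 2 or more Sox10 UMIs, the contrast was small. Of 6218 genes, 3 (0.0482%) were at least 2-fold higher in Alx1 mesenchyme and 0 (0.0%) lower. Dlx5 was among the 3, at 10.1 against 3.01 CPM. Tnfaip6 was 1.72-fold and Hopx 1.87-fold higher. Otx2 (4.80 against 4.43 CPM), Hes3 (4.00 against 3.72 CPM) and Id3 (580 against 620 CPM) were close. The Sox10 limit of the rule divided a set of cells that few genes set apart at 2-fold.

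Within Alx1 mesenchyme, genes varied with the number of Alx1 UMIs. The split into 1, 2 or 3, and 4 or more UMIs was chosen after values were seen, and Alx1 is a gene of the rule, so these levels are a description. Median depth rose little, from 24254 to 24887 and 25968 UMIs. Tnfaip6 was at 15.1 CPM (11.9 to 18.8) in cells with 1 Alx1 UMI, 27.9 CPM with 2 or 3 and 68.6 CPM (62.3 to 75.4) with 4 or more. Prrx1 was at 24.5, 31.6 and 60.8 CPM in the same order. Csn3, which encodes a milk casein, was at 5.21, 10.8 and 43.3 CPM, and Sfrp5, which encodes a secreted Wnt inhibitor, at 6.76, 10.8 and 39.1 CPM. Tcf15 ran the same way, at 7.72, 12.9 and 25.9 CPM. Twist1 did not follow, at 183, 193 and 190 CPM.

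Other genes ran the opposite way. Dlx2, a homeobox gene of the pharyngeal arches, was at 60.2 CPM in cells with 1 Alx1 UMI, 49.7 CPM with 2 or 3 and 17.1 CPM with 4 or more. Msx2 was at 47.7, 47.7 and 10.5 CPM, Id2 at 467, 370 and 104 CPM, and Id3 at 857, 750 and 221 CPM. Msx2 and the Id genes are known targets of BMP signals. Prrx2 was at 168, 173 and 86.4 CPM, Snai1 at 100.2, 96.1 and 58.7 CPM, and Foxd3 at 7.14, 5.20 and 0.798 CPM. For Id2, Id3, Msx2, Dlx2 and Prrx2 the first and second sets were nearer to each other than either was to the third. Of 6324 genes counted, 36 (0.569%) were at least 2-fold higher with 4 or more Alx1 UMIs than with 1, and 36 (0.569%) were at least 2-fold lower.

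**Figure D3:**
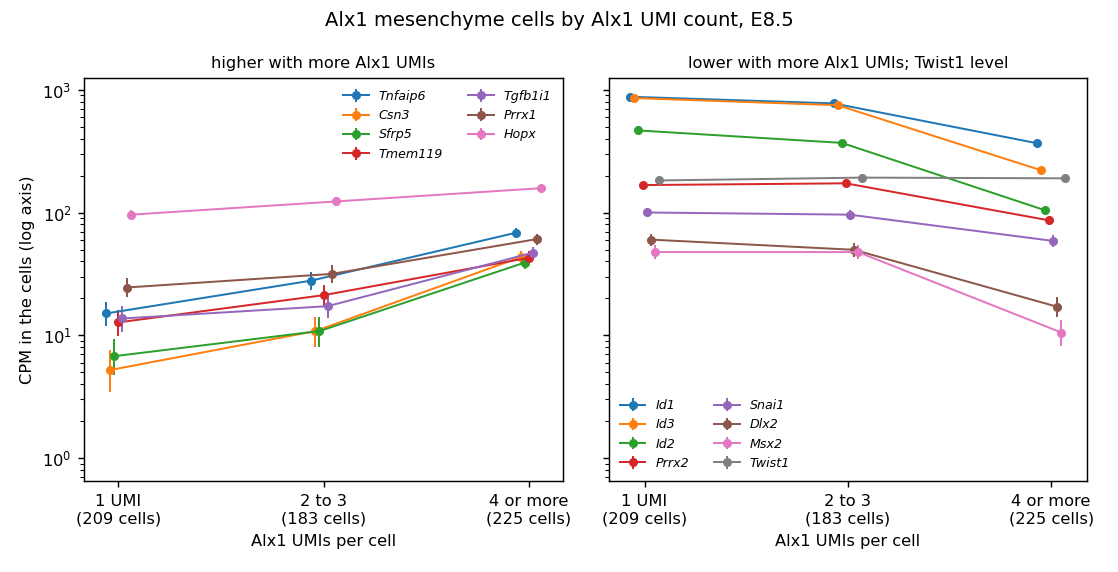
Level of selected genes in Alx1 mesenchyme cells with 1 (209 cells), 2 or 3 (183 cells) and 4 or more (225 cells) Alx1 UMIs, in CPM on a log axis with 95% Poisson intervals. Tnfaip6 stood at 15.1, 27.9 and 68.6 CPM and Id3 at 857, 750 and 221 CPM in that order.

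Dlx2 divided the 617 cells as well. Of these, 300 (48.6%) had a Dlx2 UMI and 317 (51.4%) had none, with median depths of 25218 and 24867 UMIs. Among 616 cells thinned to 10000 UMIs, Dlx2 was found in 18.1% of the 166 cells with Tnfaip6 and in 31.6% of the others. This division was chosen after values were seen and is a description.

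Cells without a Dlx2 UMI had 49.8 CPM of Tnfaip6 against 28.9 CPM in cells with one (1.72-fold, 1.46 to 2.03), 172 against 111 CPM of Alx1, and 46.5 against 34.5 CPM of Prrx1. Lum, which encodes the proteoglycan lumican, was at 12.8 against 3.50 CPM (3.67-fold, 2.40 to 5.78), Csn3 at 32.8 against 9.88 CPM and Sfrp5 at 29.4 against 11.1 CPM. Alx4 stood in the same direction, at 5.45 against 1.75 CPM. Cells with Dlx2 had 421 against 180 CPM of Id2, 794 against 373 CPM of Id3 and 892 against 418 CPM of Id1, genes of inhibitors of basic helix-loop-helix factors. Msx2, a homeobox gene of the BMP response, was at 55.0 against 12.4 CPM (4.45-fold, 3.58 to 5.58), and Dlx5 at 19.9 against 0.606 CPM. Prrx2 (189 against 88.4 CPM), Snai1 (110.0 against 56.8 CPM) and Bgn (38.6 against 15.5 CPM) were also higher with Dlx2. The sets were nearer to each other in Twist1 (212 and 165 CPM, with and without Dlx2), Hopx (126 and 130 CPM) and Sox10 (23.4 and 21.7 CPM). Of 4436 genes with at least 20 CPM in either set, 4 (0.0902%) were at least 2-fold higher without Dlx2 and 8 (0.18%) with it.

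**Figure D4:**
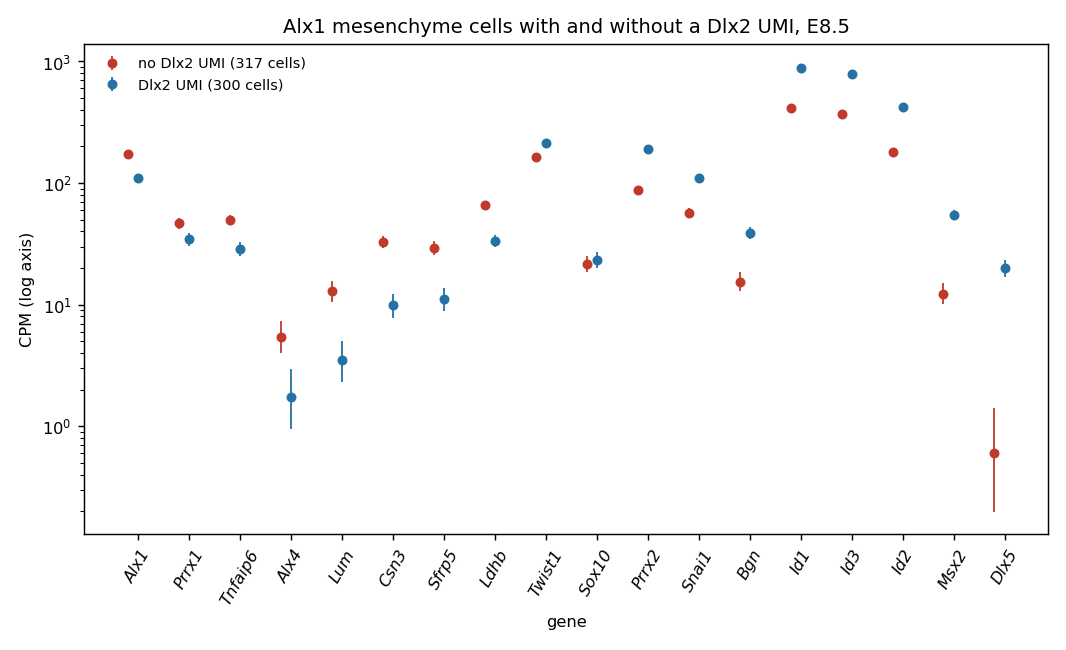
Level of selected genes in Alx1 mesenchyme cells with a Dlx2 UMI (300 cells) and without one (317 cells), in CPM on a log axis; points are the 2 sets and bars are 95% Poisson intervals. Tnfaip6 stood at 28.9 CPM with Dlx2 and 49.8 CPM without, and Msx2 at 55.0 and 12.4 CPM.

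Across the 5874 kept cells, the genes whose log-scaled levels were most like that of Alx1 were Inka1 (Pearson r = 0.515), Eva1b (0.514), Cnn2 (0.507), Dnajc1 (0.466), Twist1 (0.463), Pfn1 (0.434), Tnfaip6 (0.425), Tes (0.420), Tmem119 (0.416) and Serpinf1 (0.411), among 9845 genes. Pfn1 encodes the actin monomer binder profilin, and Tes a focal adhesion protein. The lowest were Cd24a (-0.465), Id3 (-0.452) and Map1b (-0.428). All cells share 1 library and differ in depth, and Twist1 took part in the rule.

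The same rule was applied to the 6 later libraries, which the choice of cells had not used, to ask which differences from Alx1-negative mesenchyme recurred. It found 1030 and 1460 cells in the control and Tbx1null libraries at E9.5, and 450, 974, 833 and 534 cells in control replicates 1 and 2 and Tbx1null replicates 1 and 2 at E10.5. The Alx1 level in them was 59.0 to 92.5 CPM, below the 142 CPM at E8.5. They made up 12.1 to 24.7% of mesenchymal cells with under 2 Sox10 UMIs, against 52.6% at E8.5. Cells marked as doublets were 11.6 to 17.3% of them, above the 6.23 to 10.7% of all kept cells, whereas at E8.5 the shares were 5.83 and 4.89%. The rule cells were also deeper than Alx1-negative cells in every later library. The gap in medians was smallest in control replicate 2 at E10.5, at 16893 against 16865.5 UMIs. It was largest in the Tbx1null library at E9.5, at 25006 against 21959 UMIs, beside 26084.5 against 24366 UMIs in the control library at E9.5. In the test below, 12 of 22 G2 and M phase genes were higher and 0 lower. With counts summed per library and class and the library as a block, edgeR's quasi-likelihood test called 809 of 14307 genes higher (5.65%) and 933 lower (6.52%) at a Benjamini-Hochberg adjusted p under 0.05. Removing the marked doublets gave 663 and 979. Thinning every cell to 5000 UMIs gave 140 and 184 of 10690 genes. The rule was applied again to the thinned cells, so depth, membership and total counts changed together there. The part of cycling cells was not tested. With no such block, 0 and 0 genes were called by edgeR (155 and 438 at an unadjusted p under 0.05) and 19 and 82 by DESeq2; the pairing stands because both classes came from the same pool of embryos. At E10.5, leaving out control replicate 1 gave 325 and 594 genes, control replicate 2 gave 447 and 955, Tbx1null replicate 1 gave 247 and 446, and Tbx1null replicate 2 gave 487 and 622.

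Of the 43 genes higher than in all other kept cells at E8.5, 16 (37.2%) were also higher in this test and 2, Cited1 and Dlx5, were lower. Of the 172 that were lower at E8.5, 163 were tested, and 94 (57.7%) were lower and 5 higher. Of the 29 genes higher than in Alx1-negative mesenchyme at E8.5, 28 were tested, and 9 were higher and 1 was lower. Of the 139 that were lower, 135 were tested, and 77 were lower and 3 higher. The counts over all 14307 genes, 5.65% higher and 6.52% lower, are the background for these shares, but they take in genes under the 10 CPM floor of E8.5. Neural tube genes were lower in both comparisons. The shares were not computed again without cells that had a Sox1, Sox2 or Sox3 UMI. No background matched for level was drawn. The 43 and 172 genes also came from the comparison with all other kept cells, whereas the later test was against Alx1-negative mesenchyme.

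Tnfaip6, in contrast to E8.5, had no difference that passed the test later. The rule cells and the Alx1-negative cells had 24.2 and 27.6 CPM in the control library and 19.4 and 18.8 CPM in the Tbx1null library at E9.5. At E10.5 they had 17.3 and 23.5 CPM and 18.5 and 26.0 CPM in the control replicates, and 25.2 and 23.5 CPM and 19.4 and 12.5 CPM in the Tbx1null replicates. The rule cells were lower in all 3 control libraries and higher, by CPM, in all 3 Tbx1null libraries (2 of 3 after TMM scaling), and the ranges of the classes overlapped. The log2 fold change over all 6 was -0.05 (SD 0.432, n = 6, edgeR adjusted p = 0.863). Whether the class difference itself differed between genotypes was not tested.

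Plvap, best known from the endothelium, was higher in 6 of 6 libraries, at 10.6 to 29.5 CPM against 4.01 to 12.4 CPM (log2 fold change 1.18, SD 0.312, n = 6, edgeR adjusted p = 0.000204), and at E8.5 it was at 12.8 against 4.29 CPM in all other kept cells. The 5 endothelial markers summed to 0.677 CPM there, against 1.44 CPM in all other kept cells. Emilin1, an elastic fibre gene, was higher in 6 of 6 libraries (0.59, SD 0.221, adjusted p = 0.000827), and so were Serpinf1, which encodes a secreted factor of the serpin family (0.50, SD 0.267, adjusted p = 0.00394), Tmem119, which encodes a membrane protein of bone-forming cells and microglia (0.62, SD 0.328, adjusted p = 0.0052), Mef2c (0.95, SD 0.495, adjusted p = 0.00469) and Snai1 (0.53, SD 0.195, adjusted p = 0.000752). Of these, Snai1 lost its call after thinning, and Serpinf1 lost its call when only the Tbx1null libraries were tested. Six2, a homeobox gene of facial mesenchyme that was at 1.23 CPM in Alx1 mesenchyme at E8.5, was higher in 6 of 6 (1.81, SD 0.379, edgeR adjusted p = 6.07e-05).

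Dlx5 was lower in 5 of 6 libraries (log2 fold change -0.89, SD 0.681, n = 6, edgeR adjusted p = 0.0109), and its call was lost when only the Tbx1null libraries were tested. Hopx was lower in 6 of 6 libraries without passing the test (-0.49, SD 0.470, n = 6, edgeR adjusted p = 0.0583), and its level in the rule cells ran from 83.9 CPM in both E9.5 libraries to 1.03 to 6.67 CPM at E10.5. Foxc1 was higher in 4 of 6 (0.46, SD 0.447, n = 6, edgeR adjusted p = 0.0583). Hopx passed without the Tbx1null library at E9.5 (adjusted p = 0.0310), and Foxc1 without control replicate 2 at E10.5 (adjusted p = 0.0145). Otx2 (-2.49, SD 0.695), Hes5 (-1.52, SD 0.377) and Sox2 (-1.38, SD 0.477) were lower in 6 of 6, with edgeR adjusted p = 0.00024, 8.31e-05 and 0.000741. The Hes5 call was lost when cells with a Sox1, Sox2 or Sox3 UMI were left out (-0.29, edgeR adjusted p = 0.345).

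By list, to be read against the 5.65% of all tested genes called higher and the 6.52% called lower, 13 of 34 matrix genes were higher and 1 lower in the later test, among them Mmp2, Fbln1 and Fbln2. Of 17 growth factor and chemokine genes 8 were higher and 2 lower, among them Pdgfra, a receptor gene of craniofacial mesenchyme (log2 fold change 0.57, SD 0.456, n = 6, edgeR adjusted p = 0.0258, higher in 6 of 6). The Pdgfra call was lost without control replicate 1 or Tbx1null replicate 1 at E10.5 (adjusted p = 0.0597 and 0.0966). Of 17 mesenchymal transition and forkhead factors 7 were higher and 1 lower. Of 20 neural tube genes 12 were lower and 1 higher, and of 16 arch genes 8 were lower and 3 higher. Of 11 Hox genes 4 were higher (Hoxa3, Hoxb3, Hoxd3 and Hoxd4) and 1 lower, whereas at E8.5 the Hox sum was below that of Alx1-negative mesenchyme. The 5 genes with the largest rises among those of the same sign in every library were Cxcl3, Wt1, Prg4, Prdm1 and Il2rg, with log2 fold changes of 2.42, 2.33, 1.96, 1.90 and 1.85. The sign in each library came from ratios with 0.5 UMI added to both classes, and where both classes had 0 UMIs, which was so for Cxcl3 in both E9.5 libraries and for Prg4 in the Tbx1null library at E9.5, it carries no direction. Cxcl3 had 0 to 1.64 CPM in the rule cells and Prdm1, a transcription factor gene of crest and other lineages, 1.61 to 6.46 CPM. The 5 with the largest falls were Ttn, Tnnt2, Ccno, Myl4 and Acta1, at -4.97, -4.52, -3.64, -3.56 and -3.47. As each library was left out, these ran from -5.41 to -4.15, -4.63 to -3.98, -4.45 to -2.90, -3.81 to -2.98 and -4.28 to -2.74 in that order. Ttn, Tnnt2, Myl4 and Acta1 are genes of the muscle sarcomere, and Tnnt2 was at 0 to 0.344 CPM in the rule cells and 0.144 to 7.56 CPM in Alx1-negative cells. Other genes of the mesoderm list went the opposite way. Of 9 paraxial and heart mesoderm genes tested, 4 were higher (Meox1, Meox2, Tbx1 and Tcf21) and 2 lower (Myl7 and Tnnt2). The paper lists Meox1 among genes of crest-derived smooth muscle cells, so it does not mark mesoderm alone. The paper saw no noticeable Tbx1 expression in crest, and Tbx1null libraries were part of the test. Whether mesoderm cells gave these calls was not tested.

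**Figure D5:**
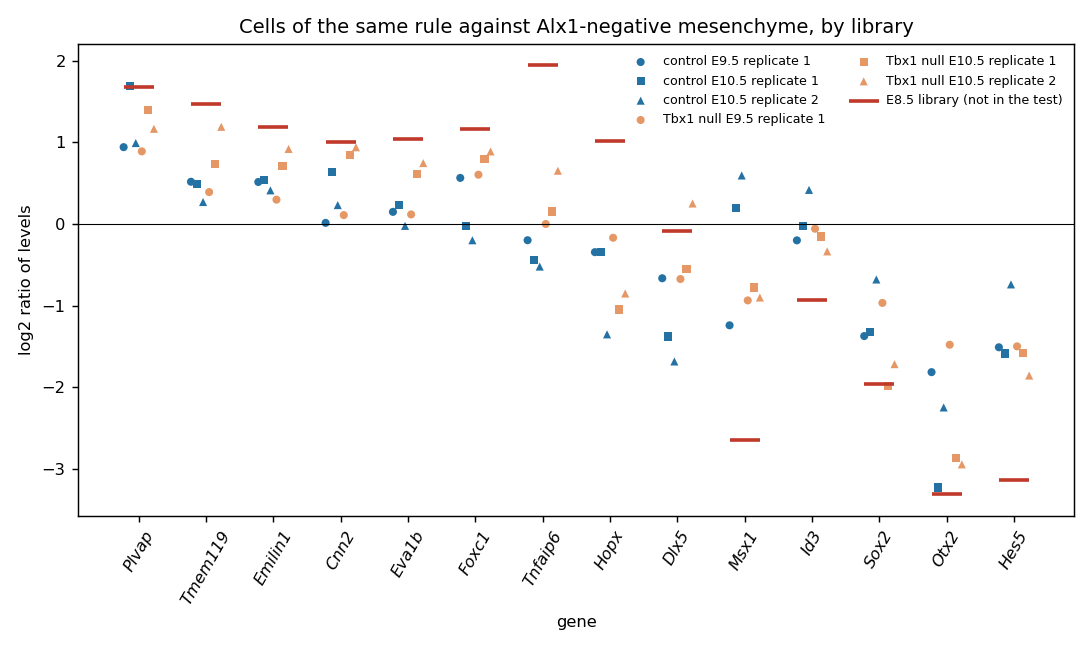
Difference of Alx1-positive from Alx1-negative mesenchyme for selected genes as a log2 ratio; points are the 6 later libraries with 0.5 UMI added, and red bars are the E8.5 library, which did not enter the test. Plvap was above 0 in 6 of 6 later libraries and Tnfaip6 lay on both sides of 0.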

How the data were processed

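Single-cell libraries of sorted crest cells were made on the 10x Chromium platform. Per the labels, the authors aligned reads to mm10 with Cell Ranger (6.0.1 in the submitters' processing notes) and deposited UMI counts of 32285 genes for the barcodes called as cells, without normalization; no further filter is stated for these counts, and doublets were not said to be removed. EGFP is not among the genes. The 7 matrices were used as deposited.

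Barcodes with under 1000 genes or over 10% mitochondrial UMIs were dropped. At E8.5, counts were summed per cell set, and genes with at least 10 CPM in either set were counted past a 2-fold ratio. Shares were computed after thinning to 10000 UMIs. Scrublet scores (scanpy 1.11.5) marked 0.8% of barcodes per 1000 barcodes as doublets, and marked cells were kept except in an alternative. In the 6 later libraries counts summed per library and class were tested with edgeR 4.0.16 in R 4.3.3 (TMM, filterByExpr, library as the replicate block). The pairing comes from both classes being cells of the same library, that is of the same pool of embryos; libraries of one group are separate samples, and no source used here says more of their independence. Rule genes were left out of counts of calls. DESeq2 1.42.0 was an alternative. The edgeR test and the E8.5 ratio step were run on simulated sums in which both sets of cells shared a profile apart from chosen genes. The simulation held no doublets, cycling cells or depth of single cells, so it does not check their part.

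The cells, the gene lists and the rule for naming genes were chosen with earlier results of these data known. Named were the rule and list genes, the 15 highest and 10 lowest at E8.5 against all other kept cells (50 CPM floor), the 10 highest and lowest against Alx1-negative mesenchyme, the 5 highest and lowest called later with the same sign in every library, and the 10 most like Alx1. Genes of the splits by Alx1 and Dlx2 that are in none of these were named after their values were seen. So were Foxd2, Foxd2os, Plvap, Emilin1 and Cited1. Promoter windows came from RefSeq (GRCm38.p6) and positions from a GRCm38 annotation, where 32158 of 32285 identifiers were found.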

Additional observations from a re-analysis of the deposited data

How the results depend on the processing

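Every E8.5 value rests on 1 library, so its intervals cover counting error and no difference between embryos, and genes under 10 CPM were not counted. The number of Alx1 mesenchyme cells was 408 with at least 2 Alx1 UMIs, 251 with Sox10 at 0 and 1707 with no limit on Sox10. Genes higher and lower than in all other kept cells (43 and 172) were 5 and 26 with a floor of 50 CPM and 159 and 854 with a floor of 1 CPM, and 79 were higher with no limit on Sox10. Against Alx1-negative mesenchyme (29 and 139), the counts were 7 and 20 with the rule applied after thinning, 90 and 265 with Sox10 at 0, 4 and 16 with a floor of 50 CPM, 139 and 817 with a floor of 1 CPM, 9 and 40 with no limit on Sox10, and 15 and 30 with no Sox1, Sox2 or Sox3 UMI, and 50 were higher with at least 2 Alx1 UMIs. Thinning to 5000 UMIs gave shares of 14.7% for Tnfaip6, 40.4% for Hopx and 17.8% for Dlx2, and no thinning gave 48.5, 72.0 and 48.6%.

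In the later libraries the counts of genes higher and lower (809 and 933) were 0 and 0 with no replicate block, 170 and 217 in control libraries only, 163 and 537 in Tbx1null libraries only, 140 and 184 after thinning to 5000 UMIs, and 374 and 424 with no Sox1, Sox2 or Sox3 UMI. Leaving out each library in turn gave 247 to 843 higher and 446 to 955 lower, with Tbx1null replicate 1 at E10.5 giving the lowest of both. No filter on low counts gave 553 and 1331, while DESeq2 with the same block gave 764 and 874. Tnfaip6 (log2 fold change -0.05) ran from -0.16 to 0.042 as each library was left out, above 0 without control replicate 1 (0.019) or replicate 2 (0.042) at E10.5, and was 0.24 in Tbx1null libraries only. Id3 (-0.04) ran from -0.13 to 0.022, above 0 without Tbx1null replicate 2 at E10.5, and was 0.089 in control libraries only, 0.084 after thinning and 0.33 with no Sox1, Sox2 or Sox3 UMI, where it was called by edgeR (adjusted p = 0.0236). Wt1, Prg4, Serpinf1 and Dlx5 lost their calls in Tbx1null libraries only, Acta1 in control libraries only and Snai1 after thinning. The cause of these changes was not tested. Of the E8.5 ratios of named genes to all other kept cells under the alternatives, 172 stayed inside the counting interval of the ratio given and 88 moved outside it. An alternative that changes only the CPM floor cannot move the ratio of a gene. The 172 therefore include comparisons that were inside by construction, and these counts do not measure how stable the ratios were. The 2-fold level was lost by Dlx5 (1.84), Mt1 (1.86) and Hapln1 (1.87) with the rule applied after thinning, by Dnajc1 (1.91), Mt1 (1.73) and Col5a2 (1.86) with Sox10 at 0, by Hapln1 with at least 2 Alx1 UMIs (1.94) and by Dlx5 with no limit on Sox10 (1.86). Of the later fold changes of named genes under the alternatives, 391 stayed on their side of the threshold, 40 lost a call, 13 gained one and 7 changed sign. The alternatives with no limit on Sox10, with no Sox1, Sox2 or Sox3 UMI and with E10.5 alone were chosen after seeing the data.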
